A study of Homo sapiens with 6 samples.

Results

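Keratins are the intermediate filament proteins of epithelial cells, and 40 rows of the deposited table were taken as keratin rows because their Ensembl identifier carries a symbol made of KRT followed by a number, out of 16715 identifiers in all. Of these rows, 39 are keratin genes and 1, KRT10-AS1, is a gene antisense to KRT10 that is kept apart below. The rule left out the keratin-associated proteins. A further 16 keratin symbols, such as KRT1, KRT2, KRT6C and KRT33A, matched no row of the table and so have no values here. RNA-seq was made from HCT116 cells, an established human colorectal carcinoma line, in 6 libraries of the same passage range: 3 from control cells and 3 from cells given 5 µM 5aza for 48 hours and then fresh medium for 48 hours. No source used here says what the control cells received in place of 5aza. The table's columns carry the code DAC where the sample titles have 5aza, and the name of the titles is used here. The study's title ties DNA methylation to alternative transcripts. Azanucleosides such as 5aza trap the enzymes that copy methylation onto new DNA, and dividing cells then lose it. No source says that the 3 libraries of a group came from separate cultures, so p-values measure the spread between these libraries, which may be technical.

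A keratin filament is built from pairs of 1 acidic type I and 1 basic type II keratin, and neither type forms filaments alone. In the human genome the type I genes lie together on chromosome 17 and the type II genes on chromosome 12, with the type I gene KRT18 beside its partner KRT8 at the end of the type II cluster. Simple keratins such as KRT8, KRT18, KRT19 and KRT20 are made in single-layered epithelia such as the gut lining. Stratified keratins such as KRT5, KRT10, KRT13 and KRT14 belong to skin, cornea and the mouth and oesophagus, and hair keratins to the hair shaft and nail. Carcinomas of the colon are typically recognised by KRT20 without KRT7.

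Values are FPKM, that is fragments scaled to gene length and to the library's mapped fragments, so levels can be set side by side between genes. The summed FPKM of a library lay between 577735 and 628399, and since the table gives no read totals, the depth behind a single value is unknown. In the control libraries 1663 to 1761 identifiers were listed at 0, and in the 5aza libraries 755 to 801. Of the colon epithelium markers, EPCAM had means of 166 and 153 FPKM in control and 5aza cells, CDX2 of 9.01 and 9.37 FPKM, while 5 of the 11 (CDX1, VIL1, LGALS4, CDH17 and GPA33) were under 0.5 FPKM in every library. The sum of the 11, mostly KRT8, KRT18 and KRT19, was 2346 to 2501 FPKM in control and 2846 to 2918 FPKM in 5aza libraries. Outside these keratins the markers did not move together. By the limma test described below, EPCAM fell (adjusted p = 0.0213), CDH1 rose from 12.7 to 16.2 FPKM (adjusted p = 0.00265) and CDX2 did not pass. The summed fibroblast markers (8 of 10 with values, 5 of them under 0.5 FPKM in every library) stood at 31.4 to 31.7 FPKM in control and 32.2 to 33.9 FPKM in 5aza libraries, mostly PDGFRA. The summed leukocyte markers (9 of 10 with values, 6 of them under 0.5 FPKM in every library) stood at 3.48 to 4.77 and 6.44 to 7.24 FPKM, mostly CD68. By the same limma test CD68 rose from 3.50 to 5.23 FPKM (adjusted p = 0.0144). The fibroblast marker COL1A1 rose from 4.67 to 6.71 FPKM (adjusted p = 0.00320), and PDGFRA did not pass. The leukocyte marker PTPRC was at most 0.108 FPKM in any library, and the part of other cells in the results was not tested. In bulk RNA, a change in the number of cells that make a transcript and a change in its amount per cell cannot be told apart.

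The stretches before the transcription start of 4 keratin genes are shown because 3 of them belong to genes that were higher after 5aza, 1 of each kind, and the last to a gene listed at 0 in every 5aza library. That gene, KRT79, was also listed at 0 in 2 of the 3 control libraries and at 0.0134 FPKM in control replicate 3. CG pairs, at which human DNA is mainly methylated, are marked. KRT20 (simple), KRT12 (stratified) and KRT32 (hair) are the genes with the largest changes past the test in their class among those with an entry, and KRT79 was picked with its values in view. The sequences are from RefSeq on GRCh38.p14, minus strand, 5′ to 3′, in lower case with CG pairs in capitals, and bases that lie in an annotated exon are left out. They are chr17:40885243-40885492 for KRT20, chr17:40867225-40867473 for KRT12, chr17:41467430-41467636 for KRT32 and chr12:52834312-52834561 for KRT79.
KRT20: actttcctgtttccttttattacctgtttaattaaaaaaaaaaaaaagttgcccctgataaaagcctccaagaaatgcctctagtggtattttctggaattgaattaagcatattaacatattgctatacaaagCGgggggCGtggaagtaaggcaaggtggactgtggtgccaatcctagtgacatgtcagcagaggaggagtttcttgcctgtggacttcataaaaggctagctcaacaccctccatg
KRT12: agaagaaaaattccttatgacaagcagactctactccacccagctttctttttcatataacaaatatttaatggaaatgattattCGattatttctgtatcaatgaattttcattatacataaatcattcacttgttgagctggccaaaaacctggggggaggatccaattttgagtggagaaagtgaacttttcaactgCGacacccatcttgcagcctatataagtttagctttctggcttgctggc
KRT32: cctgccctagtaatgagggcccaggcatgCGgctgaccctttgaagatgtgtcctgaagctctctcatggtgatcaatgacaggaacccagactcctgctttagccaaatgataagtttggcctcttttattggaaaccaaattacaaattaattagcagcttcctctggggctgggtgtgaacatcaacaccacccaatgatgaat
KRT79: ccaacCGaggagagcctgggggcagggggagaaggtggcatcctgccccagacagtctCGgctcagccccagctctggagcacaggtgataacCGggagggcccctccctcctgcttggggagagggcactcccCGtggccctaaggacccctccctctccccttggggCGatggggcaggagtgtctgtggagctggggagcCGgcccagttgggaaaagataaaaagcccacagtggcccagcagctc

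Counted over the full 250 bases before the start, KRT20, KRT12 and KRT32 each hold 2 CG pairs and KRT79 holds 6. The 4 do not stand for the family: KRT75, with the highest count (7), and KRT5 (6) had all 5aza libraries above all control libraries, and KRT10, with 0, did not rise. Entries were matched by symbol for 21 of the 39 keratin genes (24 entries, since KRT40 has several starts). KRT7, KRT13, KRT18, KRT19, KRT23 and KRT81 were not among them. The 24 entries held 0 to 7 CG pairs with a median of 2, and the median over 35116 entries of all genes was 11. At most 2 CG pairs were found in 14 of the 24 keratin entries and in 22.9% of all entries. At least 1 CG pair, a motif that reads the same on both strands, is present in 93.9% of all entries. The letters TATAAA on the gene's own strand, 40 to 16 bases before the start, were found in 8 of the 24 keratin entries, those of KRT10, KRT31, KRT34, KRT35, KRT37, KRT38, KRT71 and 1 start of KRT40, and in 2.30% of all entries. The KRT8 entry, with 1 CG pair, starts inside the annotated gene, at another start than the gene's end. These counts describe sequence alone, since methylation was not measured in these libraries.

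The 7 simple keratins included the 3 that HCT116 cells made in quantity, KRT8, KRT18 and KRT19, and all 7 rose after 5aza. KRT7, KRT20 and KRT23 rose between 1.89-fold and 3.97-fold from levels under 10 FPKM, and the abundant KRT8, KRT18 and KRT19 rose by between 1.17-fold and 1.26-fold. Of the 39 keratins, 14 passed the filter on low values (0.5 FPKM or more in 3 or more of the 6 libraries) and were tested with limma. Of these 14, 12 rose, 0 fell and 2, KRT10 and KRT222, did not pass, at an adjusted p under 0.05. Over all 12360 genes tested, 10.6% rose and 13.1% fell. Of the 14, KRT12, KRT13, KRT32 and KRT81 were under 0.5 FPKM in every control library and passed the filter through 5aza alone, so they had to be higher to be tested, and the count of 12 is not read as support. Of the 613 genes tested with a control library under 0.5 FPKM, 36.4% rose and 0 fell. Split by the mean over all libraries, 10 keratins had at least 1 FPKM, of which 8 rose, 0 fell and 2 did not pass, and 9.87% of all such genes rose and 14.1% fell. The median log2 fold change of these 10 keratins was 0.39, and that of all tested genes with such a mean was -0.02. The mean includes the 5aza libraries, and KRT20, with a control mean of 0.774 FPKM, reached 1 FPKM through them. The count of 8 and the median are therefore not independent of the change and are not read as support.

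**Figure D1:**
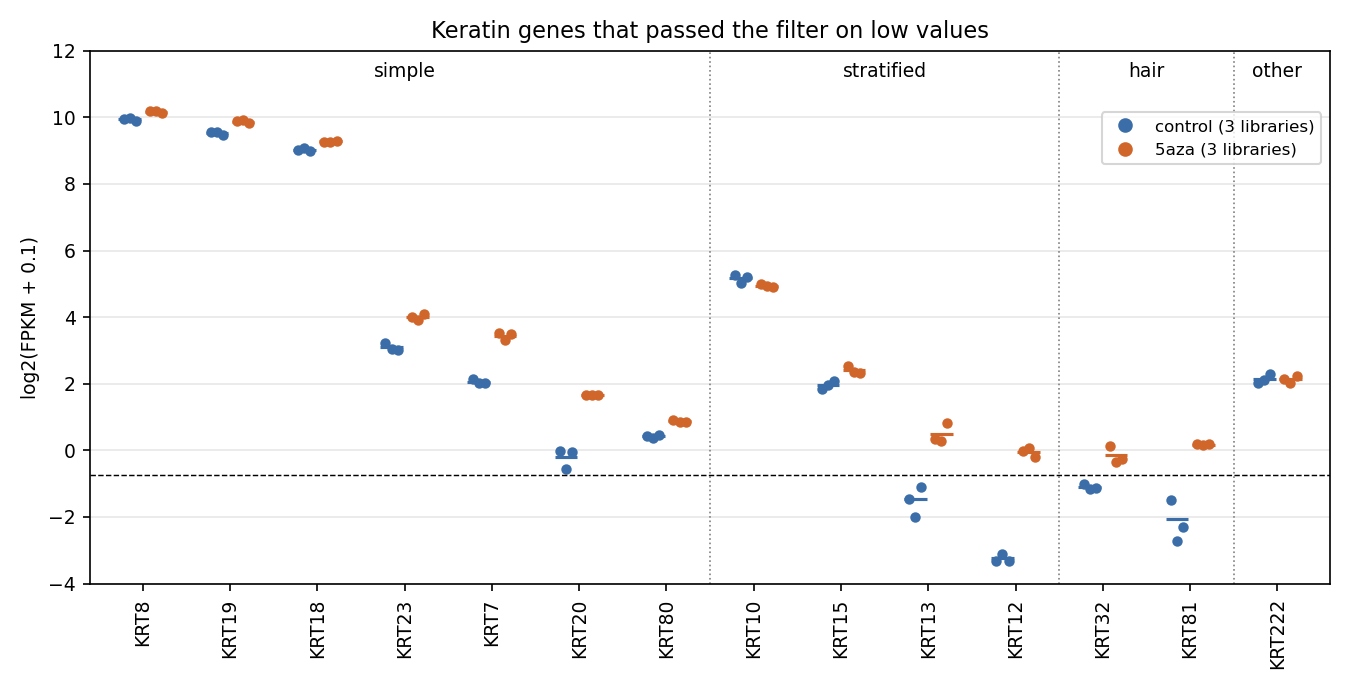
log2(FPKM + 0.1) of the 14 keratin genes that passed the filter, by class, with 1 point per library (3 control, 3 5aza) and a bar at the log2 of the group's mean FPKM + 0.1. The dashed line marks the filter of 0.5 FPKM. The points of the 2 groups do not overlap in the 12 genes that rose, and in KRT10 the 5aza points lie below the control points.

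KRT8 and KRT18, which pair with each other in simple epithelia, and KRT19, a small type I keratin that can also pair with KRT8, made up nearly all keratin RNA. KRT8 (ENSG00000170421, GRCh38 chromosome 12, 52897187 to 52949954) stood at 990, 1015 and 945 FPKM in control replicates 1 to 3 and at 1161, 1164 and 1129 FPKM in 5aza replicates 1 to 3. KRT18 (ENSG00000111057, chromosome 12, 52948871 to 52952901) stood at 517, 537 and 507 FPKM in control and 619, 616 and 631 FPKM in 5aza libraries. KRT19 (ENSG00000171345, chromosome 17, 41523617 to 41528308) stood at 752, 762 and 707 FPKM and at 940, 959 and 910 FPKM. In all 3 genes every 5aza library was above every control library. The means were 984 ± 35.4 and 1151 ± 19.4 FPKM for KRT8 (SD, n = 3), with a log2 fold change of 0.23 (SE 0.036, adjusted p = 0.00429). For KRT18 they were 520 ± 15.1 and 622 ± 7.57 FPKM, with a log2 fold change of 0.26 (SE 0.031, adjusted p = 0.00147), and for KRT19 740 ± 29.2 and 936 ± 24.9 FPKM, with 0.34 (SE 0.039, adjusted p = 0.00115). Genes this abundant seldom rose: of 926 genes with a mean of at least 100 FPKM, 5.62% rose and 40.5% fell. KRT8 and KRT18 lie on opposite strands and overlap by 1084 bases, and no source used here says whether counting used the strand, so fragments from the overlap cannot be assigned. The annotation also lists 50 pseudogenes named after KRT8 and 67 named after KRT18, with which reads may have been shared, so the values of both are uncertain in that respect.

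The order of the levels among the 3 was the same in every library, KRT8 above KRT19 above KRT18. Together they made up 97.3% to 97.7% of all keratin FPKM in control libraries and 97.1% to 97.3% in 5aza libraries. Summed over the 39 genes, keratin FPKM was 2304 ± 75.9 in control and 2788 ± 35.3 in 5aza libraries (SD, n = 3), or 0.373% and 0.477% of the summed FPKM of the library. The ratio of KRT8 to KRT18 was 1.87 to 1.92 in control and 1.79 to 1.89 in 5aza libraries, and these ranges overlap. The ratio of summed type I to summed type II keratin FPKM was 1.32 to 1.33 in control and 1.38 to 1.40 in 5aza libraries, without overlap. These sums rest on the same genes and are given as a description with no test.

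KRT7, a type II keratin of ducts and glands, and KRT20, a type I keratin of the intestinal lining, are the pair by which pathologists sort carcinomas, and both rose. KRT7 (ENSG00000135480, chromosome 12, 52232520 to 52252186) stood at 4.35, 3.94 and 3.97 FPKM in control and at 11.3, 9.85 and 11.1 FPKM in 5aza libraries. The groups were far apart, with means of 4.09 ± 0.228 and 10.8 ± 0.801 FPKM (SD, n = 3), a log2 fold change of 1.37 (SE 0.078, adjusted p = 4.27e-05). KRT20 (ENSG00000171431, chromosome 17, 40875941 to 40885227) stood at 0.878, 0.575 and 0.870 FPKM in control and at 3.04, 3.09 and 3.09 FPKM in 5aza libraries. Its 5aza libraries hardly differed from each other, and the log2 fold change was 1.88 (SE 0.17, adjusted p = 4.08e-04). KRT7 stayed above KRT20 in every library of both groups. Set against its abundant relatives, KRT7 was 0.388% to 0.439% of KRT8 in control and 0.846% to 0.982% in 5aza libraries, and KRT20 was 0.0755% to 0.123% of KRT19 and then 0.322% to 0.340%. The end of KRT7 overlaps the start of KRT86 on the same strand by 2887 bases, but KRT86 was at most 0.112 FPKM in any library. On the other strand KRT7 overlaps KRT7-AS by 2401 bases and the pseudogene KRT87P by 1721 bases. Whether counting used the strand is not known, so fragments from these stretches cannot be assigned.

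KRT23, a type I keratin known from colon carcinoma lines, and KRT80, a type II keratin found near the desmosomes of many epithelia, completed the simple class. KRT23 (ENSG00000108244, chromosome 17, 40922696 to 40937634) rose from 9.17, 8.08 and 8.04 FPKM to 15.9, 14.9 and 17.1 FPKM, with a log2 fold change of 0.91 (SE 0.075, adjusted p = 2.78e-04). KRT80 (ENSG00000167767, chromosome 12, 52168996 to 52192000) rose from 1.25, 1.21 and 1.29 FPKM to 1.78, 1.72 and 1.71 FPKM. Its groups did not overlap, but the change was small (log2 fold change 0.45, SE 0.11, adjusted p = 0.0262). With 1 library left out, KRT80 missed the threshold in 5 of 6 cases: adjusted p was 0.0653 and 0.0800 when control replicate 1 or 2 was omitted, and 0.0746, 0.0631 and 0.0673 when 5aza replicate 1, 2 or 3 was. Quantile normalization (log2 fold change 0.27, adjusted p = 0.134), removal of the expression trend (0.30) and the replicate block (adjusted p = 0.0552) ended the call too. On the other strand, KRT23 overlaps AC004231.1 by 14939 bases and KRT80 overlaps LINC00592 by 23005 bases. Whether counting used the strand is not known, so fragments from these overlaps may have been shared.

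**Figure D2:**
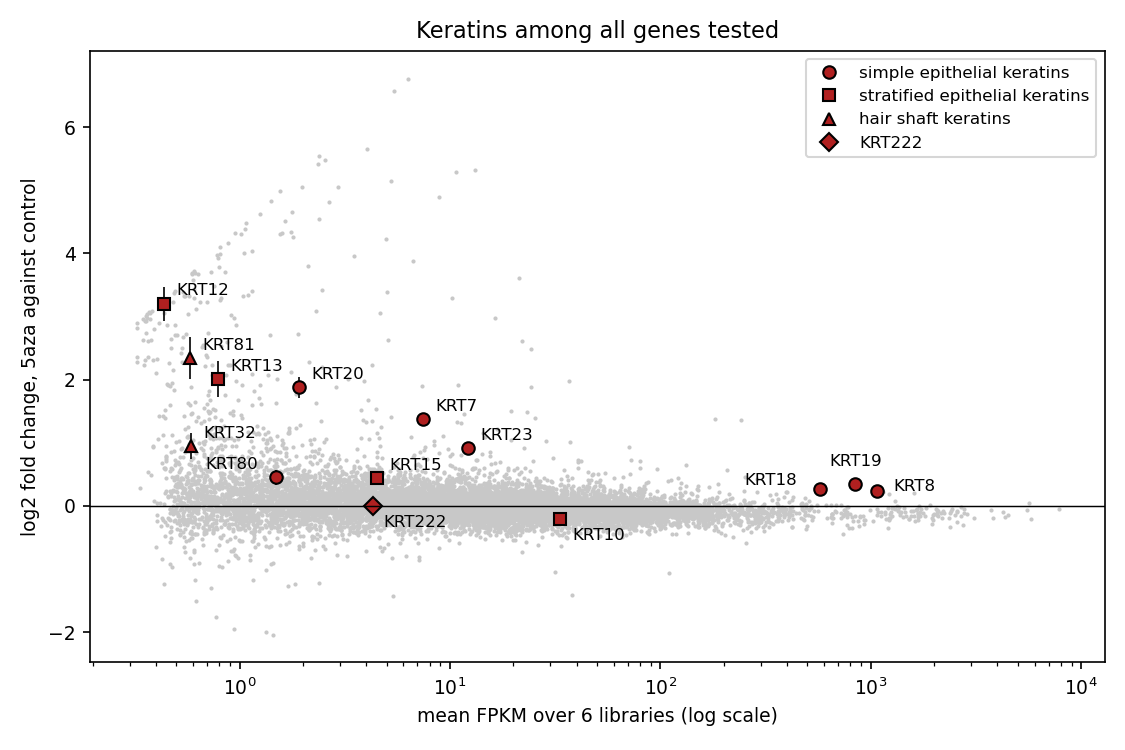
log2 fold change of 5aza against control on the log2(FPKM + 0.1) scale, over the mean FPKM of the 6 libraries on a log axis, for all 12360 genes tested (grey) and the 14 tested keratins (red, by class, bars are ± 1 SE). The abundant KRT8, KRT18 and KRT19 lie above 0 at the right, and KRT10 and KRT222 lie at or under 0.

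Stratified keratins were made at low levels except KRT10. Of the 14 in the table, 4 were tested: KRT12, KRT13 and KRT15 rose and KRT10 did not pass. KRT10 (ENSG00000186395, chromosome 17, 40818117 to 40822595), the type I keratin of the upper layers of the epidermis, stood at 38.3, 32.2 and 36.5 FPKM in control and at 31.6, 30.7 and 30.1 FPKM in 5aza libraries. Every 5aza library was below every control library, with a log2 fold change of -0.21 (SE 0.064, adjusted p = 0.0519). KRT10 passed as a fall when control replicate 2 was omitted (adjusted p = 0.0104) and with the replicate block (adjusted p = 0.0403). KRT10 overlaps KRT10-AS1 on the other strand by 3490 bases, so without strand their fragments cannot be told apart. KRT10-AS1 (ENSG00000167920, chromosome 17, 40819106 to 40836274) had means of 28.6 ± 2.75 and 29.3 ± 0.969 FPKM (log2 fold change 0.04, adjusted p = 0.720). Because KRT10 held most of the stratified FPKM, the class sum was 36.6 to 42.4 FPKM in control and 38.6 to 41.4 FPKM in 5aza libraries.

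KRT12, the type I keratin of the corneal epithelium, had the largest log2 fold change of the tested keratins with the pseudocount of 0.1, but not with a pseudocount of 1 (KRT12 0.89, KRT7 1.21, KRT20 1.20). KRT12 (ENSG00000187242, chromosome 17, 40860943 to 40867224) was listed at 0 in control replicates 1 and 3 and at 0.0159 FPKM in control replicate 2, and stood at 0.895, 0.944 and 0.768 FPKM in 5aza libraries. The log2 fold change was 3.20 (SE 0.27, adjusted p = 3.23e-04), and its size depends on the pseudocount, with 0.89 to 5.99 over the alternatives tried. It remained under 1 FPKM in every library. KRT13 (ENSG00000171401, chromosome 17, 41500981 to 41505705), a type I keratin of mouth and oesophagus, stood at 0.260, 0.149 and 0.371 FPKM in control and at 1.17, 1.11 and 1.67 FPKM in 5aza libraries (log2 fold change 2.00, SE 0.29, adjusted p = 0.00298). Both KRT12 and KRT13 passed the filter through 5aza alone and had to be higher to be tested, so their p-values are not read as support. KRT15 (ENSG00000171346, chromosome 17, 41513743 to 41522529), a type I keratin of basal cells and hair follicle stem cells, was already made in control cells. It rose from 3.50, 3.79 and 4.14 FPKM to 5.69, 4.96 and 4.89 FPKM (log2 fold change 0.43, SE 0.096, adjusted p = 0.0167). KRT15 missed the threshold narrowly when control replicate 1 or 2 (adjusted p = 0.0508 and 0.0509) or 5aza replicate 1 (0.0527) was omitted.

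The hair keratins were near 0 in control cells, and 2 of the 13 in the table reached the filter, both through 5aza alone. KRT81 (ENSG00000205426, chromosome 12, 52285913 to 52291534), a type II keratin of the hair cortex, stood at 0.258, 0.0522 and 0.104 FPKM in control and at 1.03, 1.01 and 1.04 FPKM in 5aza libraries. The 5aza libraries lay close together and well above the controls (log2 fold change 2.34, SE 0.33, adjusted p = 0.00291). Its transcript is 94.6% identical to that of KRT86 over 1404 aligned bases, with 605 identical bases in a row, and the gene lies within KRT86 on the other strand. KRT86 stood at 0.112, 0.0519 and 0.0173 FPKM in control and at 0.0801, 0.0737 and 0.0896 FPKM in 5aza libraries, so the ranges overlapped. The counting could have split reads between KRT81 and KRT86, so both values are uncertain. KRT32 (ENSG00000108759, chromosome 17, 41459811 to 41467429), a type I keratin of the hair cuticle, stood at 0.399, 0.344 and 0.357 FPKM in control and at 0.989, 0.690 and 0.738 FPKM in 5aza libraries. Its log2 fold change was 0.94 (SE 0.21, adjusted p = 0.0162). KRT32 missed the threshold when control replicate 2 (adjusted p = 0.0509) or 5aza replicate 1 (0.0529) was omitted, after quantile normalization (0.153) and once the expression trend was removed (0.0515). Summed over the 13 genes, hair keratin FPKM was 0.687 to 0.963 in control and 2.34 to 2.78 in 5aza libraries.

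The remaining 25 keratins were under the filter, with a highest value of 0.641 FPKM (KRT17, 5aza replicate 2) and a highest control value of 0.298 FPKM (KRT5, control replicate 2). KRT32 was the keratin with the lowest 5aza mean inside the filter (0.806 FPKM), and KRT17 the one with the highest outside it (0.415 FPKM). Of the 25, 9 had all 5aza libraries above all control libraries, 0 had them below, and 16 overlapped. Among all 4267 untested genes with a value above 0, 26.6% were higher without overlap and 1.69% lower without overlap, so a count of this kind was common among genes of this level. By class, the 9 were 5 of 10 stratified, 3 of 11 hair and 1 of 4 inner root sheath and companion layer keratins. The number of keratins listed at 0 was 12 to 14 in control and 4 to 6 in 5aza libraries. Over all 16715 identifiers it was 1663 to 1761 in control and 755 to 801 in 5aza libraries, so fewer values at 0 were not particular to keratins.

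Several of these low genes are the keratins that skin switches on when wounded. KRT6B (ENSG00000185479), a type II member of that set, was listed at 0.0126, 0 and 0 FPKM in control and stood at 0.419, 0.248 and 0.364 FPKM in 5aza libraries. KRT17 (ENSG00000128422), a type I member, stood at 0.0232, 0 and 0.0470 FPKM in control and at 0.328, 0.641 and 0.276 FPKM in 5aza libraries. KRT16 (ENSG00000186832), another type I member, stood at 0.0719, 0.0704 and 0.127 FPKM and at 0.443, 0.339 and 0.104 FPKM, so that 5aza replicate 3 lay within the control range. KRT6A was listed at 0 in all control libraries and at 0.0984, 0.122 and 0.0124 FPKM in 5aza libraries. Transcripts of KRT6A and KRT6B are 95.5% identical over 1944 aligned bases, and those of KRT14 and KRT16 85.6% identical over 1516, so reads may have been split among them and these values are uncertain.

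The basal layer pair KRT5 and KRT14, the filament of dividing keratinocytes, was low in both groups. KRT5 stood at 0.0956, 0.298 and 0.0754 FPKM in control and at 0.386, 0.392 and 0.315 FPKM in 5aza libraries, barely apart because of control replicate 2. KRT14 stood at 0, 0.0176 and 0 FPKM in control and at 0.267, 0.284 and 0.0841 FPKM in 5aza libraries. KRT75 (ENSG00000170454), a type II keratin of the companion layer of the hair follicle, was listed at 0 in every control library and stood at 0.195, 0.205 and 0.259 FPKM in 5aza libraries. With no filter, all 39 keratins could be tested and 16 rose and 0 fell. The added ones were KRT6B (adjusted p = 8.85e-04), KRT14 (0.0161), KRT17 (0.00506) and KRT75 (6.85e-04). In that setting 1780 of all 16627 genes tested rose and 1461 fell. Among all genes under the filter with a value above 0, 26.6% were higher without overlap, so the added calls are not read as support. At the other end, KRT78 and KRT79 were listed at 0 in all 5aza libraries and each in 2 of the 3 control libraries. Their only values above 0 were 0.0169 FPKM (KRT78, control replicate 1) and 0.0134 FPKM (KRT79, control replicate 3), so the groups overlapped. KRT4, KRT72, KRT82 and KRT83 were at most 0.0504 FPKM in any library.

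**Figure D3:**
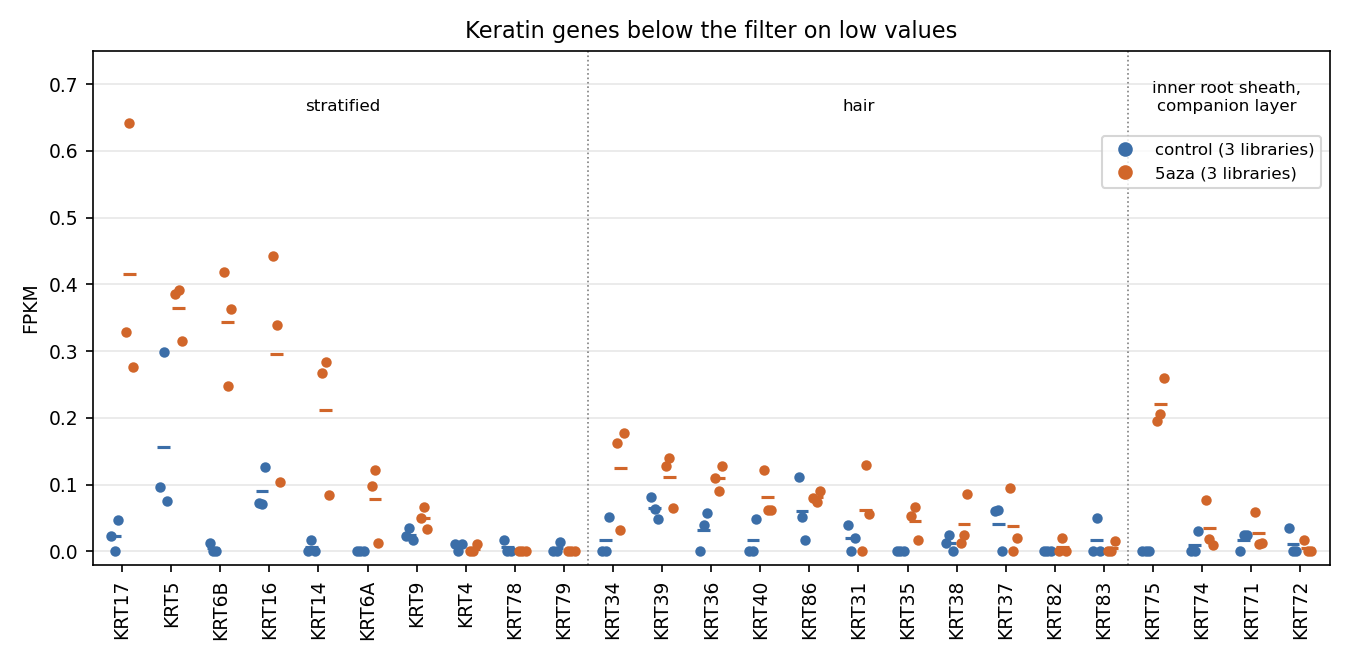
FPKM of the 25 keratin genes below the filter, by class, with 1 point per library (3 control, 3 5aza) and a bar at the group's mean. KRT75 and KRT6B show 5aza points of 0.195 to 0.419 FPKM over control points at or near 0, while KRT16 and most hair keratins overlap.

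KRT222 (ENSG00000213424, chromosome 17, 40654665 to 40665181), a keratin-like gene at the edge of the type I cluster that was put in no class, stood at 3.92, 4.25 and 4.79 FPKM in control and at 4.32, 3.95 and 4.62 FPKM in 5aza libraries. The groups overlapped (log2 fold change -0.01, SE 0.10, adjusted p = 0.974). KRT222 overlaps another annotated gene, AC073508.2, on the same strand by 10477 bases. Fragments may have been shared between them, so the values of KRT222 are uncertain in that respect.

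By position, 18 keratins with values lie between KRT80 and KRT18 on chromosome 12 (52168996 to 52952901) and 21 between KRT222 and KRT17 on chromosome 17 (40654665 to 41624842). On chromosome 12, 5 were tested and 5 rose, and 9 of the 18 were higher without overlap. On chromosome 17, 9 were tested, 7 rose and 2 did not pass, and 12 of the 21 were higher without overlap and 1, KRT10, was lower. Of the keratins tested, 5 of 5 and 7 of 9 were higher without overlap, where 19.6% of all genes tested were higher and 22.6% lower. Of those not tested, 4 of 13 and 5 of 12 were, where 26.6% of all untested genes were higher and 1.69% lower. Among those tested, KRT81 on chromosome 12 and KRT12, KRT13 and KRT32 on chromosome 17 passed the filter through 5aza alone. They had to be higher to be tested, so the counts of tested keratins by position are not read as support. Along chromosome 12, KRT75, KRT6B, KRT6A and KRT5 are neighbours and were each higher without overlap. All of them were under the filter, KRT5 was barely apart, and reads may have been shared between KRT6A and KRT6B. The next 6 keratins, from KRT71 to KRT78, were at most 0.0761 FPKM in any library and all overlapped, and after them come the abundant KRT8 and KRT18. Along chromosome 17, the 17 keratin-associated protein genes with values lie in the gap between KRT40 and KRT34. Of them KRTAP3-1 (means of 0.560 and 25.7 FPKM) and KRTAP2-3 (3.66 and 29.2 FPKM) were tested and rose, and 15 were not tested. The hair keratins on either side of that gap, KRT39, KRT40, KRT34 and KRT31, were at most 0.177 FPKM.

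**Figure D4:**
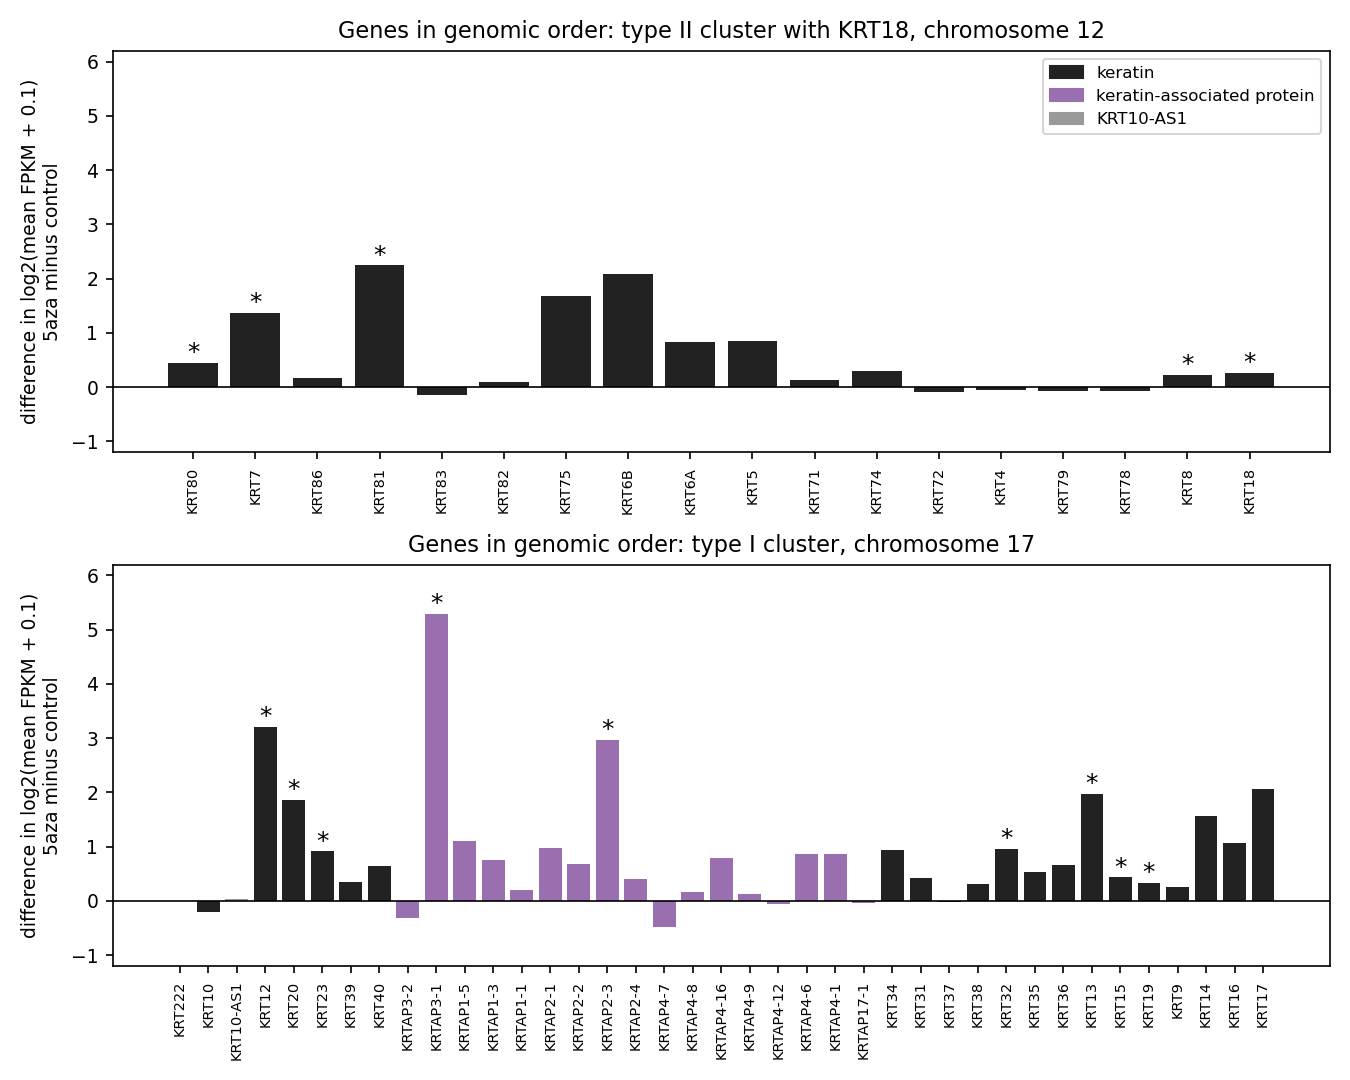
Difference in log2(mean FPKM + 0.1), 5aza minus control, of each gene with values in the chromosome 12 and chromosome 17 keratin clusters, in genomic order and not to distance; stars mark genes that rose with limma. Bars of KRT12, KRT20, KRT81 and KRT13 stand out among tested keratins, and KRTAP3-1 exceeds every keratin.

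Keratin filaments are anchored at desmosomes and hemidesmosomes by linker proteins. Of 25 linker genes, 20 were tested, of which 8 rose, 1 fell and 11 did not pass, beside 10.6% risen and 13.1% fallen among all tested genes. The list's median log2 fold change was 0.10, and -0.01 over all genes tested. COL17A1, a hemidesmosome collagen, rose from 0.457 ± 0.201 to 1.16 ± 0.331 FPKM (SD, n = 3, adjusted p = 0.0253). With 1 control library at 0.5 FPKM or more, COL17A1 passed the filter through 5aza and had to be higher to be tested. DSP, desmoplakin, which ties keratins to the desmosome, stood at 25.4, 27.3 and 27.0 FPKM in control and at 30.1, 40.1 and 33.7 FPKM in 5aza libraries (log2 fold change 0.37, adjusted p = 0.0277). EPPK1, epiplakin, rose from 4.08 to 5.47 FPKM (adjusted p = 0.0128), and PLEC, plectin, from 58.6 to 71.8 FPKM (adjusted p = 0.0189). ITGB4, the integrin of hemidesmosomes, rose from 75.9 to 88.1 FPKM, JUP, plakoglobin, from 99.1 to 109 FPKM and PERP from 71.8 to 78.3 FPKM. PKP4 fell from 23.9 to 21.9 FPKM (adjusted p = 0.0468). DSG2 (67.9 and 68.8 FPKM), PKP3 (64.4 and 61.7), FAM83H (50.3 and 53.1) and CSNK1A1 (103 and 108) did not pass. The count of 8 became 2 with no variance trend, 2 when control replicate 1 or 2 was omitted, 3 without 5aza replicate 2 and 1 without 5aza replicate 3. Of the calls named here, that of EPPK1 was kept under all 15 alternatives tried, and those of COL17A1, DSP, PLEC, ITGB4, JUP, PERP and PKP4 were each lost under 4 to 10 of the alternatives.

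Among 16 genes of other intermediate filaments, 11 were tested, of which 2 rose, 2 fell and 7 did not pass, counts near the 10.6% risen and 13.1% fallen among all tested genes. The list's median log2 fold change was 0.04. VIM, vimentin, the filament of mesenchymal cells, rose from 6.13 to 37.8 FPKM and DES, desmin, the filament of muscle, from 1.62 ± 0.111 to 3.50 ± 0.233 FPKM (log2 fold change 1.06, adjusted p = 5.86e-04). The nuclear lamin genes LMNB1 (105 and 81.7 FPKM, adjusted p = 0.00647) and LMNB2 (173 and 145 FPKM, adjusted p = 0.00493) fell, and LMNA (260 and 268 FPKM) did not pass. The level of VIM after 5aza was above that of KRT7, KRT20 and KRT23 and below that of KRT8, KRT18 and KRT19.

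The genes of the cornified envelope, which keratinocytes lay down with KRT1 and KRT10 as they die, are a list of 28. Of these, 16 had values and 7 were tested, of which 2 rose, 0 fell and 5 did not pass, beside 10.6% risen and 13.1% fallen among all tested genes. The list's median log2 fold change was 0.27. KLK5, a protease of the outer skin, rose from 0.466 ± 0.109 to 2.27 ± 0.210 FPKM (adjusted p = 3.94e-04), and SBSN, suprabasin, from 0.135 ± 0.0720 to 0.779 ± 0.213 FPKM (adjusted p = 0.00513). Both passed the filter through 5aza, and of the 613 genes tested with a control library under 0.5 FPKM 36.4% rose and 0 fell, so the 2 rises and the median are not read as support. A list of 28 regulators of keratin genes or keratin-rich tissues holds transcription factors and the splicing factor ESRP1. Of these, 26 had values and 22 were tested, of which 4 rose, 1 (ESRP1) fell and 17 did not pass, beside 10.6% risen and 13.1% fallen among all tested genes. The list's median log2 fold change was 0.01. TFAP2C rose from 4.27 to 5.31 FPKM (adjusted p = 0.0338), SOX9 from 45.9 to 53.8 FPKM (0.0248), MSX2 from 13.4 to 15.7 FPKM (0.0352) and JUNB from 62.5 to 71.3 FPKM (0.00517). ESRP1, which acts in epithelial cells, fell from 45.9 to 41.8 FPKM (0.0357), and CEBPB (68.4 and 66.4 FPKM) did not pass. The calls of TFAP2C, SOX9, MSX2 and ESRP1 were each lost under 5 to 8 of the 15 alternatives.

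TP63, the factor that sets up stratified epithelium, stood at 0.0150, 0.00726 and 0.0569 FPKM in control and at 0.227, 0.142 and 0.332 FPKM in 5aza libraries, under the filter in all 6, and is named here with its values in view. The 4 untested genes of the regulator list, TP63, GRHL3, DLX3 and LEF1, were all higher without overlap. So were 26.6% of all untested genes with a value above 0. Of the keratinocyte markers, 9 of 10 had values, and their sum was 171 to 179 FPKM in control and 203 to 208 FPKM in 5aza libraries, mostly SFN. Of the 9, 4 were under 0.5 FPKM in every library. The markers of this list did not move together either. SFN rose, with means of 134 and 167 FPKM (adjusted p = 0.00123), as did COL17A1, which passed the filter through 5aza. KRT10 and DSC3 were tested and did not pass. Every 5aza library of KRT10 was below every control library, and the groups of DSC3 overlapped.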

How the data were processed

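RNA of HCT116 cells was measured by RNA-seq in 3 control and 3 5aza libraries. The authors deposited 1 table of FPKM per gene, a unit taken from the table's name and its values. Tools named in the submitters' processing notes, without their roles, include the aligner STAR (2.5.1b) and the counter HTSeq (0.6.0), and the builds named are the human GRCh38 and the rat Rnor_6.0. Which program made the FPKM values, which strand setting it had and how RNA was selected: not given in the sources used here. Of 16726 rows, 16715 identifiers are distinct, and for the 11 repeated ones only the row of higher mean level was used. Symbols were matched by Ensembl identifier for 15421 of 15451, and coordinates are from GENCODE 29 on GRCh38.

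Values were used as log2(FPKM + 0.1), on which a fold change understates that of low genes, with no further scaling. Testing used limma 3.58.1 (R 4.3.3) on genes of 0.5 FPKM or more in 3 or more libraries (variance trend, two-sided, Benjamini-Hochberg over all 12360 genes tested). Rose and fell mean an adjusted p under 0.05. Each adjusted p-value is from limma, n is 3 libraries per group, SD is between libraries, and SE belongs to the log2 fold change. The fit was tested on simulated data. Transcript identity is from local alignment of the longest coding transcript of each gene (Biopython 1.88). Keratins with a mean of at least 1 FPKM in either group or past the test, up to 3 rising and 3 falling genes of each other list, and list genes with a mean of at least 50 FPKM were named, and further genes where noted. The members and lists were chosen with earlier results of these data known. Alternatives were 2 other pseudocounts, 2 other filters, quantile normalization, no variance trend, a replicate block, repeated rows summed and leaving out each library. Cyclic loess, which removes the expression trend, was added after seeing the data.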

Additional observations from a re-analysis of the deposited data

How the results depend on the processing

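Over 15 alternatives, the 14 tested keratins gave 206 values. No called keratin changed direction, 189 stayed on the same side of the threshold, 15 lost it and 2 passed it, and these changes were in KRT10, KRT15, KRT32 and KRT80. The number of keratins that rose was 12 and ranged from 9 to 12 with 1 library left out. It was 8 with a mean of at least 1 FPKM, where 10 keratins were tested. With no filter it was 16 of 39, beside 1780 of all 16627 genes tested. No keratin fell in the reported setting, 0 to 1 fell with 1 library left out, and 1 (KRT10) fell with the replicate block and without control replicate 2. In the partner lists together 16 genes rose and 4 fell. With no variance trend 8 rose and 2 fell, and with 1 library left out 6 to 12 rose (fewest without 5aza replicate 3) and 2 to 3 fell. Over all genes 2929 changed and 1619 fell, with 1041 falls with no variance trend and, with 1 library left out, 1877 to 2599 changes and 940 to 1521 falls (fewest changes without 5aza replicate 3, fewest falls without control replicate 2). The cause was not tested.

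With the replicate block, 11 keratins rose and 2932 genes changed in all. Same-numbered control and 5aza libraries had deviations from their group means that correlated at 0.0482, 0.0772 and 0.0677 across genes, and every library correlated best with its own number, which is a hint from the data and not the design. No alternative moved the median log2 fold change of all genes by 0.1 or more (range -0.02 to 0.03). The sizes for the abundant keratins did vary: 0.20 to 0.38 for KRT8, 0.24 to 0.37 for KRT18 and 0.31 to 0.46 for KRT19. Each of them kept its call under all 15 alternatives. Values under 0.5 FPKM are limited by a depth that is unknown.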
